A study of Homo sapiens with 8 samples.

Results

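LEF1, its antisense RNA LEF1-AS1, GATA3, BCL11B, IKZF2 and KLF2 were followed across 8 Affymetrix arrays of T-ALL, the acute lymphoblastic leukaemia of the T lineage. They are 6 of the 14884 genes that the arrays named, each with 1 probe set found by its symbol, and all 6 were bright enough to be tested. Each gene was chosen for lower measured values with hairpins against TOX, so that contrast is given for them as a description without a test. The arrays came from 2 established cell lines, CCRF-CEM and HPB-ALL, both grown from patients with T-ALL. From each line there was 1 array of untransduced cells, 1 of cells carrying a scramble short hairpin RNA (shRNA), 1 of cells carrying the hairpin shTOX-1 and 1 of cells carrying shTOX-2. Transduced cells had been selected with puromycin and kept for at least 2 weeks, which the untransduced cells had not undergone per the labels. Nothing in the labels says that arrays came from separate cultures, so errors and p-values cover only how these arrays vary, which may be technical in part.

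LEF1 is an HMG-box protein that binds DNA beside its relative TCF7 and takes β-catenin to Wnt target genes; it acts when thymocytes commit to the T lineage and rearrange their receptor genes. GATA3 is a zinc finger factor needed from the earliest T cell progenitors onward and later for CD4 and Th2 cells. BCL11B, a zinc finger repressor that works with the NuRD chromatin complex, closes the natural killer and myeloid options of early thymocytes. IKZF2 encodes Helios, an Ikaros family protein seen in regulatory T cells and in some thymocytes, and KLF2 encodes a Krüppel-like factor that drives quiescence and, through S1PR1, exit from the thymus. LEF1-AS1 is a long noncoding RNA read from the strand opposite to LEF1. TOX is itself an HMG-box nuclear protein required for thymocyte development.

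In the RefSeq annotation of GRCh38.p14, LEF1 lies on the minus strand of chromosome 4 at 108047548 to 108168932 and LEF1-AS1 on the plus strand at 108167525 to 108176430. The outermost spans of this pair share 1408 bp. GATA3 lies on chromosome 10 at 8045333 to 8075198, BCL11B on chromosome 14 at 99169287 to 99272197, IKZF2 on chromosome 2 at 212999698 to 213152456 and KLF2 on chromosome 19 at 16324826 to 16328685. The RefSeq promoter table used here holds 12 windows for the 6 genes. The 250 bases before a start are printed for 4 of them: for the antisense pair, whose levels went down together, and for IKZF2 and KLF2, whose patterns over the arrays departed most from that pair. Capitals mark the motifs TGTGGT (the core bound by RUNX proteins) and CTTTGA (the core bound by LEF1 and TCF7), searched on both strands. The motif AGATAA, a site of GATA factors, and TATAAA, a form of the TATA box, were searched in the same way. Both are absent from the printed windows as exact runs, and other forms of these sites were not searched. The window of LEF1, chr4:108166302-108166551 on the minus strand, belongs to a start 2631 bp inside the gene. The window of LEF1-AS1 is chr4:108171870-108172119 on the plus strand and that of KLF2 chr19:16324576-16324825 on the plus strand. IKZF2 has 2 windows, of which chr2:213152457-213152706 on the minus strand is printed and chr2:213150438-213150687 is not. The windows of LEF1 and LEF1-AS1 lie inside the spans of their own genes, and the printed ones of IKZF2 and KLF2 just before the outermost start. The LEF1-AS1 start used here lies 3188 bp from the outermost LEF1 start and 5819 bp from the LEF1 start whose window is printed.
LEF1: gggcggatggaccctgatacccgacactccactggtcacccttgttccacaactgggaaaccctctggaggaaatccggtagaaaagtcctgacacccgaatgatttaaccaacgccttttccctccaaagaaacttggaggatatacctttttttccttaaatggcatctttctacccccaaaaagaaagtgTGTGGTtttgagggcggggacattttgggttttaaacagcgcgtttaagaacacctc
LEF1-AS1: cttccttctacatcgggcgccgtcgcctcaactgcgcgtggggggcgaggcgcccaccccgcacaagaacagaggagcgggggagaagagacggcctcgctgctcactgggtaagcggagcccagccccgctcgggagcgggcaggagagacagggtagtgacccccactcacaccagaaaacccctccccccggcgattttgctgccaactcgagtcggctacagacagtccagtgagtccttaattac
IKZF2: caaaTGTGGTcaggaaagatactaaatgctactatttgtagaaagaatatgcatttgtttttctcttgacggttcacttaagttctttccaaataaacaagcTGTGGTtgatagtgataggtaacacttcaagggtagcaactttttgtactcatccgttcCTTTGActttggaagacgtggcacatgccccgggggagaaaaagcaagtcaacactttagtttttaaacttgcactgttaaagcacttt
KLF2: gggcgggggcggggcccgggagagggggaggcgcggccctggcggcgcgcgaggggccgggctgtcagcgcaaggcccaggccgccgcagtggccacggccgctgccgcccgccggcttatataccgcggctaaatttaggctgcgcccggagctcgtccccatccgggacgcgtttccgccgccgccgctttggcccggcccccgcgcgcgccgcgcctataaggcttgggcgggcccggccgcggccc

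The LEF1 window held 1 TGTGGT, 57 bases before the start, and the printed IKZF2 window held 2 TGTGGT and 1 CTTTGA. The other IKZF2 window held none of the 4 motifs. None of the 4 motifs was in the LEF1-AS1 or KLF2 window, and no matches overlapped. Over all 12 windows of the 6 genes, 3 held TGTGGT, 2 held CTTTGA, 1 held TATAAA and 0 held AGATAA. Of 35116 windows of the same length in the RefSeq table, 11.0% held TGTGGT, 11.2% CTTTGA, 9.17% AGATAA and 10.7% TATAAA. Base composition set the printed windows apart: 80% of bases were G or C in KLF2, 64.8% in LEF1-AS1, 47.6% in LEF1 and 38% in IKZF2. The median over all windows was 58%, and the IKZF2 window not printed had 50%. A match here is a run of letters and does not show that a factor binds.

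The 8 arrays carried 53617 probe sets with medians of 4.62 to 4.71 on the deposited log2 scale. Correlations over the 8930 tested genes were 0.949 to 0.985 within a line and 0.876 to 0.908 across lines. The targeted gene was lower with both hairpins in both lines: shTOX-1 left TOX at 77% of scramble in CCRF-CEM and 74.2% in HPB-ALL, and shTOX-2 at 44.6% and 28%. T cell identity was checked with 16 markers, of which 13 were measured and 12 passed the filter. For B cells 1 of 3 measured markers passed the filter (7 listed), for myeloid cells 1 of 4 (7 listed) and for NK cells 2 of 4 (7 listed). For erythroid cells 2 of 2 measured markers passed (6 listed), and for fibroblasts and epithelia 2 of 4 (7 listed). A bulk array cannot tell fewer cells of a kind from less RNA per cell.

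LEF1 and LEF1-AS1 had the same order of arrays in both lines, with untransduced cells highest, scramble next, then shTOX-1 and shTOX-2. In that order, the LEF1 level in CCRF-CEM was 10.95, 10.78, 10.51 and 10.35 on the log2 scale. In HPB-ALL it was 10.29, 9.76, 9.51 and 9.08. The shTOX arrays did not overlap the controls of their line. In HPB-ALL scramble lay 0.54 below untransduced cells and shTOX-2 lay 0.68 below scramble. shTOX-1 left LEF1 at 82.5% of scramble in CCRF-CEM and 84.3% in HPB-ALL, and shTOX-2 at 73.9% and 62.6%. Over both lines LEF1 differed by -0.58 ± 0.16 (standard error, 4 shTOX against 4 control arrays) on the log2 scale. Set against scramble alone it differed by -0.41 ± 0.17, and against untransduced cells alone by -0.76 ± 0.17. CCRF-CEM alone gave -0.44 ± 0.22 and HPB-ALL alone -0.73 ± 0.22.

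LEF1-AS1 varied most of the 6 genes. From untransduced cells through scramble and shTOX-1 to shTOX-2, its log2 level was 8.16, 7.16, 6.64 and 6.49 in CCRF-CEM. Across the HPB-ALL arrays it was 7.24, 6.44, 5.85 and 5.54. The untransduced array stood apart from the other 3 in each line, and the scramble array still lay above both shTOX arrays. Scramble cells held 49.9% of the untransduced signal in CCRF-CEM and 57.5% in HPB-ALL. Set against scramble, shTOX-1 cells held 70% in CCRF-CEM and 66.4% in HPB-ALL, and shTOX-2 cells 63.1% and 53.6%. Against both kinds of control LEF1-AS1 differed by -1.12 ± 0.23, which became -0.67 ± 0.15 when both untransduced arrays were left out. Only 0.616% of tested genes spanned as wide a range over the 4 HPB-ALL arrays, where LEF1-AS1 spanned 1.70 on the log2 scale, and 1.51% did so in CCRF-CEM, where it spanned 1.67. The sources used here do not say whether the probe set of LEF1-AS1 reads only its own strand or where in the gene it lies, and the outermost gene spans overlap, so the pair's values are not certain to be separate.

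**Figure D1:**
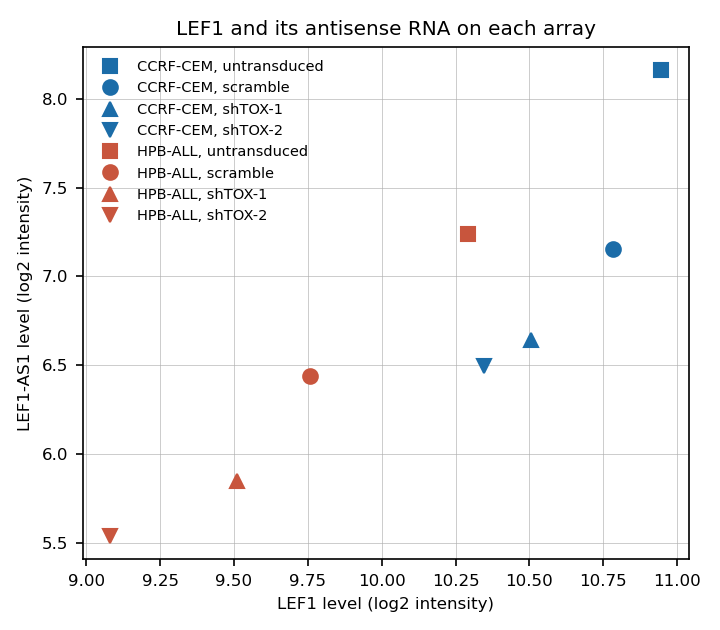
LEF1 level (horizontal axis, log2 intensity) against LEF1-AS1 level (vertical axis, log2 intensity), 1 point per array, with colour for the line and shape for the construct. Within each line the points run from shTOX-2 at the lower left to untransduced cells at the upper right, from 10.35 and 6.49 to 10.95 and 8.16 in CCRF-CEM.

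GATA3 had similar levels in both lines. For untransduced cells, scramble, shTOX-1 and shTOX-2 its log2 level was 9.16, 8.94, 8.70 and 8.56 in CCRF-CEM. The HPB-ALL arrays gave 9.05, 9.11, 8.89 and 8.64. The shTOX arrays lay below both controls in each line, with shTOX-2 lowest, at 76.7% of scramble in CCRF-CEM and 72.3% in HPB-ALL. The difference over both lines was -0.37 ± 0.12.

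BCL11B moved least. CCRF-CEM had a log2 level of 10.53 untransduced, 10.34 with scramble, 10.22 with shTOX-1 and 10.26 with shTOX-2. HPB-ALL had 9.25, 9.20, 8.96 and 8.87. The shTOX arrays again lay below both controls, though in CCRF-CEM the gap between scramble and the nearer shTOX array was 0.09. Between 79.8% and 94.2% of the scramble signal was left over the 4 shTOX arrays. The difference was -0.25 ± 0.11 against both controls and -0.19 ± 0.12 against scramble alone.

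IKZF2 was low on 3 of the 4 shTOX arrays. Its log2 level in CCRF-CEM was 8.69 untransduced, 8.72 with scramble, 7.86 with shTOX-1 and 7.88 with shTOX-2. The HPB-ALL arrays stood at 9.20, 9.36, 9.38 and 8.43 in that order. The HPB-ALL shTOX-1 array was thus the highest of its line, at 102% of scramble, while the other shTOX arrays held 52.3% to 56.1%. With the same hairpin TOX was at 77% of scramble in CCRF-CEM and at 74.2% in HPB-ALL, so the lines' shTOX-1 arrays differed in IKZF2 at nearly the same share of TOX. The difference over both lines was -0.60 ± 0.20.

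KLF2 was the member whose scramble array was highest in both lines. The CCRF-CEM arrays had log2 levels of 8.0 untransduced, 8.49 with scramble, 7.74 with shTOX-1 and 7.35 with shTOX-2. The HPB-ALL arrays had 6.86, 7.09, 6.79 and 6.71. Both shTOX arrays lay below both controls in each line, but in HPB-ALL the distance from the untransduced array to shTOX-1 was 0.07. CCRF-CEM kept 59.6% of the scramble signal with shTOX-1 and 45.4% with shTOX-2, and HPB-ALL 81.6% and 76.8%. The difference was -0.64 ± 0.17 against scramble and -0.28 ± 0.17 against untransduced cells, and, within lines against both controls, CCRF-CEM gave -0.70 ± 0.21 and HPB-ALL -0.23 ± 0.21.

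**Figure D2:**
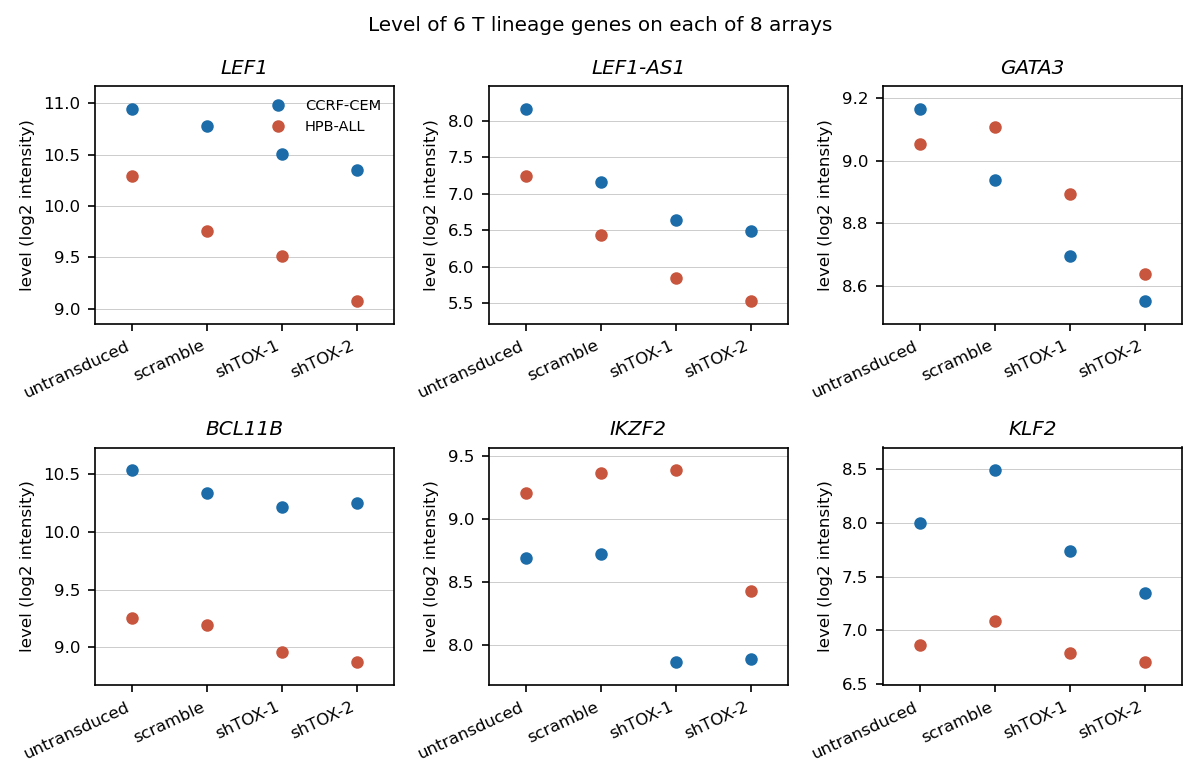
Log2 intensity (vertical axes, scaled for each gene) of the 6 genes in untransduced cells and with scramble, shTOX-1 and shTOX-2, 1 point per array, blue for CCRF-CEM and red for HPB-ALL. LEF1, LEF1-AS1, GATA3, BCL11B and KLF2 have both shTOX points of a line below both of its controls; IKZF2 has an HPB-ALL shTOX-1 point of 9.38 above them.

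In 5 of the 6 genes both shTOX arrays lay below both controls in both lines, as in 4.99% of the 8930 tested genes, and the same 5 lay below scramble alone in both lines, as in 9.69%. The genes were chosen on these values, so nothing is read from the counts. With 1 array per line and construct, no spread can be had for neighbours in these orders. The steps between shTOX-1 and shTOX-2 were 0.02 for IKZF2, 0.04 for BCL11B, 0.16 for LEF1 and 0.15 for LEF1-AS1 in CCRF-CEM, and for KLF2 in HPB-ALL all 3 steps between neighbouring arrays were 0.07 to 0.22. With limma over all genes, 0 of 8930 genes (0%) differed between shTOX and control arrays at an adjusted p under 0.05, and 1277 had an unadjusted p under 0.05. Against scramble alone limma called 0 (0%), with 459 at an unadjusted p under 0.05. Against untransduced cells alone it called 1056 (11.8%), with 2603 at an unadjusted p under 0.05.

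**Figure D3:**
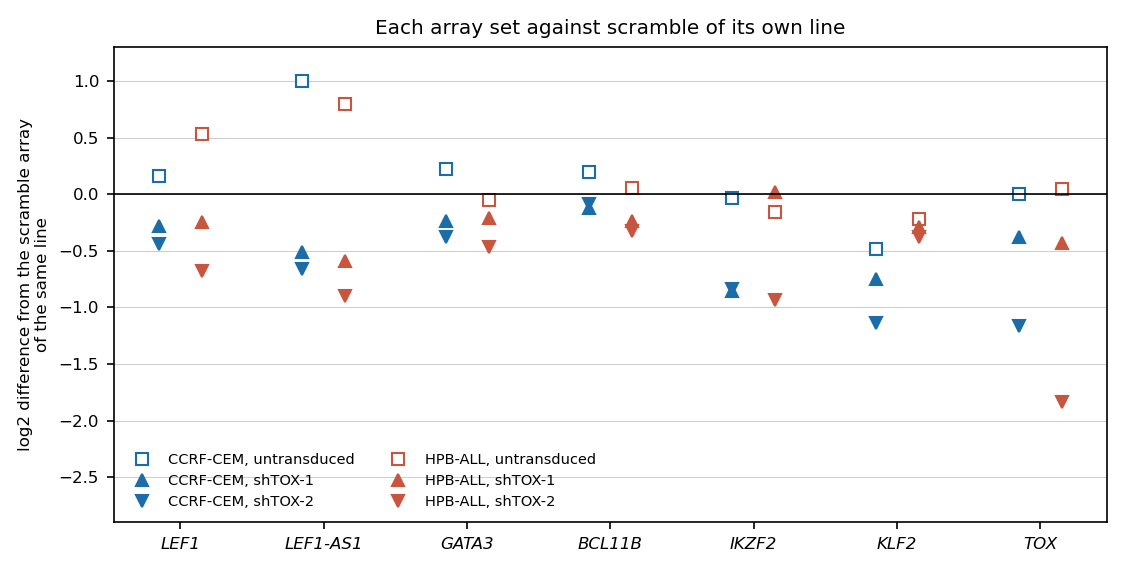
Log2 difference from the scramble array of the same line (vertical axis) for each gene and for TOX (horizontal axis), with open squares for untransduced cells and filled triangles for shTOX-1 (up) and shTOX-2 (down), blue for CCRF-CEM and red for HPB-ALL. Untransduced cells lie 1.0 and 0.80 above scramble for LEF1-AS1 and 0.49 and 0.22 below it for KLF2.

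Virus and selection without a TOX hairpin were compared through scramble and untransduced cells, which gave opposite signs among the 6 genes. LEF1-AS1 was lower with scramble, with a difference of -0.90 ± 0.16 (1 array of each kind per line), made up of -1.0 in CCRF-CEM and -0.80 in HPB-ALL, and LEF1 had a difference of -0.35 ± 0.19. KLF2 was higher with scramble by 0.36 ± 0.20. The values were -0.09 ± 0.16 for GATA3, -0.12 ± 0.14 for BCL11B and 0.10 ± 0.28 for IKZF2. These arrays also served as the controls on which the genes were chosen, so no test is given for them here. Over all genes limma called 95 of 8930 (1.06%), 52 higher and 43 lower with scramble, and 3 to 90 when 1 array was left out (3 without CCRF-CEM shTOX-2). The T cell markers had differences of the same sign as LEF1-AS1: 11 of 12 were negative, none called, with a median of -0.34 against 0.02 for all genes. Their summed log2 level in CCRF-CEM was 13.37 in untransduced cells and 12.49, 12.56 and 12.32 with scramble, shTOX-1 and shTOX-2, and in HPB-ALL 11.43, 11.28, 11.00 and 10.81. With shTOX against both controls all 12 were negative, none called, with a median of -0.29 against 0.03 for all genes; against scramble alone 8 were negative and 4 positive, with a median of -0.13 against 0.02. Myeloid markers, 4 of 7 measured, had a summed log2 level in HPB-ALL of 6.43 in untransduced cells and 7.64, 6.56 and 8.32 with scramble, shTOX-1 and shTOX-2, and in CCRF-CEM of 6.19, 6.13, 6.56 and 6.48. Only MPO of them passed the filter, with a CCRF-CEM mean of 4.88 below it. MPO differed by 1.01 between scramble and untransduced cells and by 0.61 between shTOX and controls, not called in either. The part of the T cell and myeloid markers in the results was not tested.

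The hairpins leave different amounts of TOX, and the 6 genes were compared between them. Over both lines shTOX-2 minus shTOX-1 was -0.29 ± 0.21 for LEF1, -0.23 ± 0.34 for LEF1-AS1, -0.20 ± 0.16 for GATA3, -0.02 ± 0.15 for BCL11B, -0.47 ± 0.25 for IKZF2 and -0.24 ± 0.23 for KLF2. None passed: the limma adjusted p was 1 for all 6, and 0 of 8930 genes (0%) passed, with 381 at an unadjusted p under 0.05. The 95% intervals ran from -0.78 to 0.19 for LEF1 and from -1.03 to 0.10 for IKZF2, so differences of the size of the shTOX values themselves lie inside them. TOX differed by -1.10 ± 0.20, with an adjusted p of 0.401. Setting all array medians equal moved this contrast by 0.10 over all genes and turned BCL11B to 0.08. The IKZF2 value came from HPB-ALL, where the hairpins differed by -0.96, whereas in CCRF-CEM they differed by 0.02; without the HPB-ALL shTOX-1 array it was 0.01.

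Whether the lines responded differently to shTOX was tested as the shTOX difference in HPB-ALL minus that in CCRF-CEM. It was -0.29 ± 0.32 for LEF1, -0.05 ± 0.49 for LEF1-AS1, 0.11 ± 0.24 for GATA3, -0.11 ± 0.21 for BCL11B, 0.45 ± 0.39 for IKZF2 and 0.47 ± 0.30 for KLF2. No gene passed, with limma adjusted p between 0.973 and 0.996, nor did any of the 8930 (0 called, 0%), of which 410 had an unadjusted p under 0.05. For KLF2 the interval ran from -0.22 to 1.16. Leaving out 1 array gave -0.56 to -0.02 for LEF1, -0.21 to -0.01 for BCL11B and 0.23 to 0.72 for KLF2. With 2 shTOX and 2 control arrays per line, differences of that width could not be told from 0. Quantile normalization moved this contrast by -0.11 over all genes and turned GATA3 to -0.02.

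The lines differed in 5 of the 6 genes, a contrast balanced over constructs on which the genes were not chosen. BCL11B was 2.41-fold higher in CCRF-CEM, at a mean log2 level of 10.34 ± 0.14 (SD, n = 4) against 9.07 ± 0.18 in HPB-ALL, a difference of 1.27 ± 0.11 with a limma adjusted p of 1.22e-05. KLF2 was 2.05-fold higher in CCRF-CEM, at 7.90 ± 0.48 against 6.86 ± 0.16 (limma adjusted p = 0.00106). LEF1 was 1.98-fold higher, at 10.65 ± 0.27 against 9.66 ± 0.51 (limma adjusted p = 0.00116). For BCL11B, KLF2 and LEF1 the 4 arrays of a line did not overlap those of the other, as in 27% of tested genes, and the exact two-sided permutation test of 4 against 4 arrays gave p = 0.0286, the smallest its 70 assignments allow.

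IKZF2 ran the other way and was 1.75-fold higher in HPB-ALL, at 9.09 ± 0.45 against 8.29 ± 0.48 (limma adjusted p = 0.0122). LEF1-AS1 was higher in CCRF-CEM, at 7.11 ± 0.75 against 6.27 ± 0.75, a difference of 0.85 ± 0.23 (limma adjusted p = 0.0214). For IKZF2 and LEF1-AS1 arrays of the lines overlapped, and the exact permutation p was 0.0857 and 0.171. Without a term for shTOX their limma adjusted p rose to 0.051 and 0.168. The LEF1-AS1 call was also lost without the CCRF-CEM shTOX-1 array (limma adjusted p = 0.0582), the CCRF-CEM shTOX-2 array (0.0537), the HPB-ALL scramble array (0.0564) or the HPB-ALL shTOX-2 array (0.066). GATA3 did not pass, with a line difference of -0.08 ± 0.12, a 95% interval of -0.34 to 0.17 and a limma adjusted p of 0.625.

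That 5 of 6 genes were called between the lines is to be read against 27.4% of all tested genes (2443, of which 1111 were higher in CCRF-CEM and 1332 in HPB-ALL). T cell markers were also higher in CCRF-CEM, 10 of 12 called, with a median of 1.97 against -0.01 over all genes. The 12 include CD1A, RAG1 and CD8B, whose HPB-ALL means lay below the filter. CD8B also lost its call without any of several single arrays (limma adjusted p = 0.0562 to 0.112). The summed log2 level of the measured T cell markers was 12.32 to 13.37 in CCRF-CEM and 10.81 to 11.43 in HPB-ALL. The part of this in the line differences was not tested.

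Other T lineage factors were taken as a list of 24, of which 17 were measured under their symbols and 15 were tested. Between the lines 5 were called higher in CCRF-CEM and 1 higher in HPB-ALL. The list had a median of 0.20 against -0.01 for all genes. ETS1, which acts with RUNX proteins at T cell enhancers, was higher in CCRF-CEM by 0.90 ± 0.14, the repressor GFI1 by 0.89 ± 0.16 and the chromatin organizer SATB1 by 0.75 ± 0.18. RUNX3, the factor of the CD8 lineage, was lower, with a difference of -1.31 ± 0.16. These 4 calls held without any single array, whereas ZEB1, also called higher in CCRF-CEM, lost its call without any of 7 single arrays (limma adjusted p = 0.0593 to 0.145). With shTOX 13 of the 15, TOX among them, had negative differences and 0 were called, with a median of -0.18 against 0.03 for all genes; against scramble alone 12 were negative, with a median of -0.07 against 0.02. The negative values included MYB at -0.23 ± 0.12, IKZF1 at -0.21 ± 0.11 and RUNX3 at -0.32 ± 0.16.

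**Figure D4:**
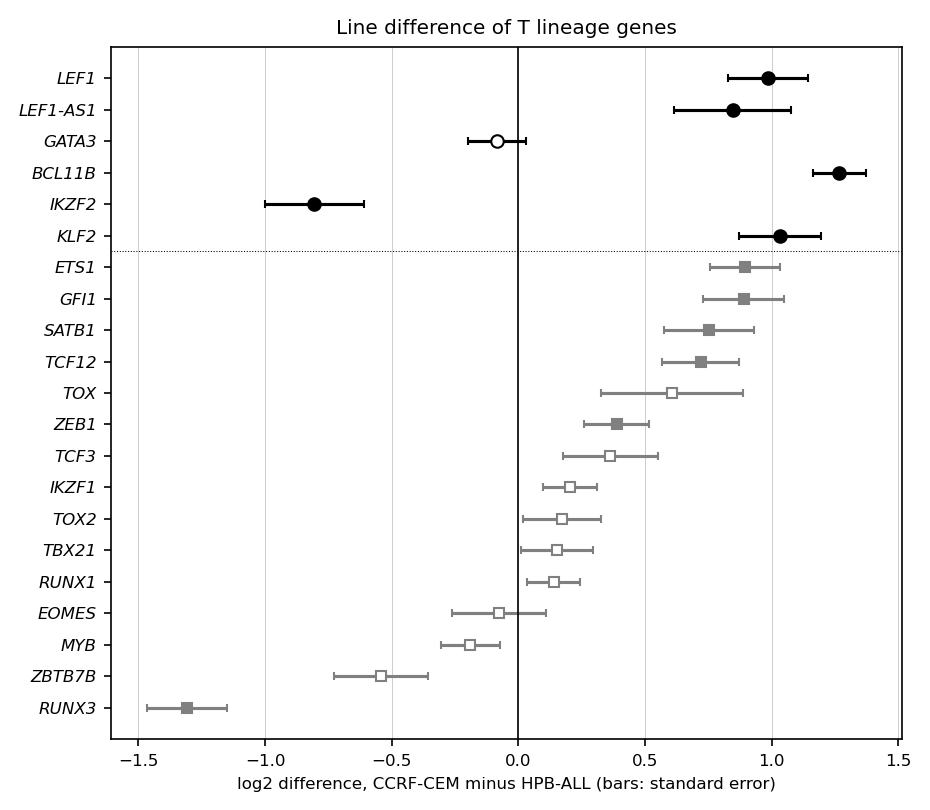
Line difference in log2 (CCRF-CEM minus HPB-ALL, horizontal axis) with its standard error, for the 6 genes (circles) and 15 other T lineage factors (squares); filled symbols passed an adjusted p under 0.05. BCL11B at 1.27 and RUNX3 at -1.31 lie at the ends, and GATA3 at -0.08 is next to 0.

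Genes around LEF1 differed between the lines in both directions. Of 13 listed LEF1 partners 4 could be tested and none was called between the lines; BCL9, a β-catenin adaptor, differed by 0.14 ± 0.12 and the corepressor TLE5 by 0.15 ± 0.12. Of 13 Wnt target genes 8 were tested, 2 called higher in CCRF-CEM and 3 in HPB-ALL. The adhesion receptor CD44 was higher in CCRF-CEM by 4.02 ± 0.12, as was the Wnt antagonist NKD2 by 0.99 ± 0.19. CD44 had an HPB-ALL mean of 3.62, below the filter, so it passed only through CCRF-CEM. The Wnt feedback inhibitors ZNRF3 and NOTUM were lower in CCRF-CEM, with differences of -2.55 ± 0.13 and -1.25 ± 0.14. Their CCRF-CEM means of 5.26 and 5.36 lay near the filter. With shTOX none of the 8 was called: 5 were positive and 3 negative, with a median of 0.02 against 0.03 for all genes. Among the 3 negative ones, MYC differed by -0.52 ± 0.15 and NKD2 by -0.38 ± 0.19.

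Around GATA3, 3 of 8 family members and cofactors were tested and none was called between the lines. Of 9 Th2 genes 3 were tested and 2 were higher in CCRF-CEM, the interleukin 4 receptor chain IL4R by 1.67 ± 0.13 and PTGDR2, a prostaglandin receptor of Th2 cells, by 1.25 ± 0.28. Around BCL11B, 11 of 14 genes of its relative BCL11A and of NuRD were tested. BCL11A was higher in CCRF-CEM by 0.61 ± 0.17 and the NuRD ATPase CHD3 lower, at -0.56 ± 0.17. The BCL11A call was lost without the CCRF-CEM shTOX-2 array (limma adjusted p = 0.0713) or the HPB-ALL scramble array (0.0523), and the CHD3 call without CCRF-CEM shTOX-1 (0.0642), HPB-ALL shTOX-1 (0.0852) or HPB-ALL shTOX-2 (0.105). Of 15 natural killer and progenitor genes 6 were tested and 2 were called, both higher in HPB-ALL: the adaptor TYROBP at -1.03 ± 0.26 and the myeloid factor SPI1 at -0.90 ± 0.14. With shTOX none of these 6 was called, and the signs were mixed: 5 of them were positive against both controls (median 0.08 against 0.03 for all genes), 3 against scramble alone (median -0.06), 6 against both controls in CCRF-CEM (median 0.28) and 1 in HPB-ALL (median -0.12).

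Around IKZF2, 2 of 4 other Ikaros family genes and 1 of 9 regulatory T cell genes were bright enough to be tested, and none was called between the lines. FOXP3, the factor that defines regulatory T cells, had mean log2 levels of 5.70 and 5.29 in CCRF-CEM and HPB-ALL, near the filter at 5.18.

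Around KLF2, 11 of 16 other KLF genes were tested, 1 called higher in CCRF-CEM and 5 in HPB-ALL. Of these 5, KLF10 lost its call without any of 7 single arrays (limma adjusted p = 0.0526 to 0.0977) and KLF16 without any of 6 (0.0633 to 0.121), so that 3 of the 5 were left without CCRF-CEM shTOX-2, CCRF-CEM untransduced cells, HPB-ALL scramble, HPB-ALL shTOX-1 or HPB-ALL shTOX-2. KLF8 at -2.51 ± 0.15, KLF3 at -1.29 ± 0.14 and KLF6 at -1.21 ± 0.28 were thus opposite in sign to KLF2 at 1.03 ± 0.16. KLF8 and KLF3 had CCRF-CEM means of 4.73 and 4.71, below the filter, so both passed it only through HPB-ALL. Of 10 homing genes linked to KLF2, 7 were tested. S1PR1, the sphingosine phosphate receptor for exit from the thymus, was higher in CCRF-CEM by 3.23 ± 0.21. CD69, which removes that receptor from the surface, had an HPB-ALL mean of 4.83, below the filter, and was higher by 3.05 ± 0.45 in CCRF-CEM. The lymph node homing receptor CCR7 was lower there, at -1.35 ± 0.44, a call that held only without CCRF-CEM scramble or without HPB-ALL untransduced cells when single arrays were left out (limma adjusted p = 0.0583 to 0.127 without each of the other 6). With scramble against untransduced cells CCR7 was the only one of the 7 called, higher by 1.77 ± 0.28 (limma adjusted p = 0.0343). That call was lost without either scramble array (limma adjusted p = 0.133 for CCRF-CEM and 0.115 for HPB-ALL), without CCRF-CEM shTOX-2 (0.0688) and without CCRF-CEM untransduced cells (0.23). With shTOX against both controls none of the 7 was called. Of them 5 were positive and 2 negative, with a median of 0.115 against 0.03 for all genes. Against scramble alone 4 were positive and 3 negative, with a median of 0.18 against 0.02. S1PR1, among the negative ones, differed by -0.30 ± 0.21 against both controls.

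The genes most like each of the 6 were found by Pearson correlation of log2 values, centred within each line, over the 8 arrays. Such values share the shTOX and untransduced arrays on which the 6 were chosen, and are given as a description. LEF1 was most like GXYLT2 (r = 0.994), TNNI3 (0.986) and NMNAT3 (0.985), and LEF1-AS1 most like PTAR1 (0.991), SPSB3 (0.984) and BBS10 (0.983). GATA3 was closest to PMS2CL (0.979), SETD7 (0.977) and SLFN5 (0.974). BCL11B was closest to the zinc finger genes ZNF692 (0.977), ZNF655 (0.974) and ZNF169 (0.972). IKZF2 followed SEC61A2 (0.976), PHPT1 (0.976) and CERS5 (0.964), and KLF2 followed the lipid-presenting molecule CD1D (0.971), then UCKL1 (0.959) and RIN3 (0.954). CD1D was, like KLF2, higher with scramble than in untransduced cells, by 0.53 against 0.36.

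Among the 6 genes themselves the correlation was highest between LEF1-AS1 and BCL11B (r = 0.953 over the 8 arrays) and between LEF1 and LEF1-AS1 (0.924). KLF2 was least like the others, at 0.438 with BCL11B, 0.454 with LEF1-AS1 and 0.486 with LEF1, and nearest to IKZF2 at 0.73. With TOX the values ran from 0.643 for KLF2 to 0.873 for LEF1. The share of tested genes with a higher r than TOX ran from 0.907% for IKZF2 to 11.5% for LEF1-AS1. The 6 genes were chosen for low values on the arrays where TOX is low, so these correlations are a description only.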

How the data were processed

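Total RNA of 8 samples was labelled by the GeneChip WT Plus protocol, per the labels' protocols. The authors deposited log2 intensities, judged as such from range and shape, summarized to 1 per probe set on each array; their background correction and normalization are not given in the sources used for this text. Of 53617 probe sets, 16098 carried 1 gene symbol, 37519 none and 0 several, for 14884 genes; each gene was read from its brightest probe set. The 8930 genes whose mean reached the 40th percentile (log2 5.18) were tested on all 8 arrays with limma 3.58.1 (lmFit and eBayes, no trend) in R 4.3.3, with Benjamini-Hochberg adjustment over all of them and a threshold of 0.05. Line and shTOX were terms; other fits had 3 treatments, the hairpins, or a mean per line and state. The scripts were tested on simulated data. Values after ± are standard errors unless marked SD. The number of arrays limits the precision.

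The members and the gene lists were chosen with earlier results of these data known. Besides the 6 genes and TOX, up to 4 tested genes of a list were named per comparison, called ones first by size and otherwise by smallest p, and the 3 genes with the highest correlation per member. Filters, scaling, the probe set rule, the eBayes trend, model terms, a replicate block and each array were varied. Markers of B, NK, erythroid, and fibroblast and epithelial cells were only counted.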

Additional observations from a re-analysis of the deposited data

Results flagged for a closer look

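For 3 of the genes a contrast had opposite signs in the 2 lines, which rests on 1 array of each kind per line; the difference between the lines was not tested for these contrasts. IKZF2 differed between shTOX-2 and shTOX-1 by -0.96 in HPB-ALL and by 0.022 in CCRF-CEM. BCL11B differed between the same hairpins by -0.086 in HPB-ALL and 0.036 in CCRF-CEM. GATA3 differed between scramble and untransduced cells by -0.23 in CCRF-CEM and 0.053 in HPB-ALL.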

How the results depend on the processing

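The line differences of LEF1, BCL11B and KLF2 kept their direction and a p under 0.05 in each of 18 alternatives run. They ran at 0.87 to 1.12, 1.24 to 1.32 and 0.89 to 1.16 on the log2 scale. The p was the limma adjusted p except in the exact permutation test, whose p of 0.0286 was not adjusted. Taking the mean of a gene's probe sets could not change these values, since each gene has 1 probe set. GATA3 did not pass in any alternative, at -0.15 to -0.02. LEF1-AS1 was not tested with the filter at the 60th percentile, where fewer genes are tested. The count between scramble and untransduced cells was 95, and 162 with that filter, 182 with an eBayes trend, 0 with no line term and 3 to 90 leaving out 1 array (3 without CCRF-CEM shTOX-2); the causes were not tested. Leaving out 1 array gave 0 to 4 calls for shTOX against controls and 0 to 8 for its difference between lines.

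Among values that missed the threshold, array medians set equal turned the BCL11B hairpin difference to 0.079, and quantile normalization and leaving out both untransduced arrays turned the GATA3 difference between lines to -0.023 and -0.029; the causes were not tested. Leaving out 1 array gave, between scramble and untransduced cells, -0.22 to 0.043 for GATA3 and -0.099 to 0.29 for IKZF2; between hairpins, -0.10 to 0.053 for BCL11B, -0.94 to 0.0098 for IKZF2 and -0.50 to 0.020 for KLF2; and for the difference between lines, -0.56 to 0.45 for LEF1-AS1, -0.018 to 0.24 for GATA3 and -0.025 to 0.93 for IKZF2.

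A replicate block of constructs shared by both lines gave 9 calls between scramble and untransduced cells and 16 for shTOX against controls. The r used to judge pairing of same-construct arrays was -0.08 for scramble, 0.24 for shTOX-1, 0.38 for shTOX-2 and 0.57 for untransduced cells. By that measure the constructs did not all pair. It is not the correlation of the levels themselves, which was 0.876 to 0.908 across lines.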
